A study of Mus musculus with 12 samples.

Results

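The carriers of organic ions, peptides and nucleosides were studied in A2C12, a mouse lung tumour cell line. They were taken as every gene whose symbol in the platform annotation belongs to the Slc22a, Slco, Slc47a, Slc29a or Slc15a family. Of 18194 genes with a probe set of their own, 46 belonged to these families: 21 Slc22a, 15 Slco, 5 Slc15a, 4 Slc29a and 1 Slc47a gene. For each gene the probe set with the highest mean over all 12 arrays was read. The choice used symbols and the mean over all arrays, and no difference between groups.

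These membrane proteins move small molecules across the cell surface and across the membranes of lysosomes. Slc22a and Slco proteins carry organic cations, organic anions, carnitine, bile acids, hormone conjugates and prostaglandins, Slc29a proteins let nucleosides pass down their gradient, and Slc15a proteins take up short peptides together with protons. Many of them are best known from liver, kidney and gut, where they decide which drugs enter a cell. Slc47a1 differs in direction, since it exports organic cations, and Slc22a17 is known as a receptor for lipocalin 2.

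A2C12 comes from a mouse model of C57BL/6 background transgenic for c-myc and c-raf, so that all groups carry both transgenes, whose promoters the sources used here do not give. For 48 h the cells were kept with anti-EpCAM antibody (100 µg/ml) or without it, then stained with the DNA dye Hoechst (5 µg/ml for 90 min) and sorted, with the pump inhibitor reserpine (50 µmol/l) as a staining control. The side population (SP) is the fraction that keeps little dye, which ABC pumps remove, and the non-SP fraction is the remainder. With 3 biological replicates each, the groups were SP anti-EpCAM, non-SP anti-EpCAM, SP untreated and non-SP untreated. It is a single tumour line, and no other line was measured. Levels are given on the log2 scale of the deposited values.

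The SP and non-SP arrays with the same treatment and replicate number are called a pair here, because their values deviated together. Of 4 epithelial markers all 4 lay above the background limit defined in the next paragraph, Epcam with a mean of 8.11, and of 5 alveolar type II markers 3 did, while Sftpc averaged 5.64 and did not. All 3 fibroblast markers also lay above it (Col1a1, Pdgfra and Dcn, with means of 11.5, 9.59 and 9.27), as did 2 of 5 leukocyte markers (Cd3e at 6.76 and Lyz2 at 6.22, while Ptprc was at 3.42) and 1 of 3 endothelial ones (Kdr at 6.70). Array medians over all probe sets ran from 5.72 to 6.06. They were 5.75, 5.74 and 5.75 in SP anti-EpCAM and 5.81, 5.86 and 5.72 in non-SP anti-EpCAM cells. In SP untreated cells they were 6.06, 5.80 and 5.95, and in non-SP untreated cells 6.02, 5.81 and 5.97. Anti-EpCAM pair 2 stood apart, with an excess of the 3′ over the 5′ actin probe sets of 1.03 (SP) and 0.895 (non-SP) log2 units, against at most 0.733 on the other 10 arrays. That value of 0.733 was of SP untreated replicate 3, which was thus raised too, and the next array had 0.404.

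To say which carriers gave signal above background, each mean was set against 39 olfactory receptor genes, which lung tumour cells are not known to use. The 95th percentile of their means was 5.78. Above this limit lay 22 of the 46 carriers (47.8%), against 11798 of all 18194 genes (64.8%). All 4 Slc29a genes were above it, as were 10 of 21 Slc22a, 6 of 15 Slco and 2 of 5 Slc15a genes, and the only Slc47a gene was not. Slc29a2 lay at the limit itself. The class does not rank carriers against each other, since probe sets differ in affinity.

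**Figure D1:**
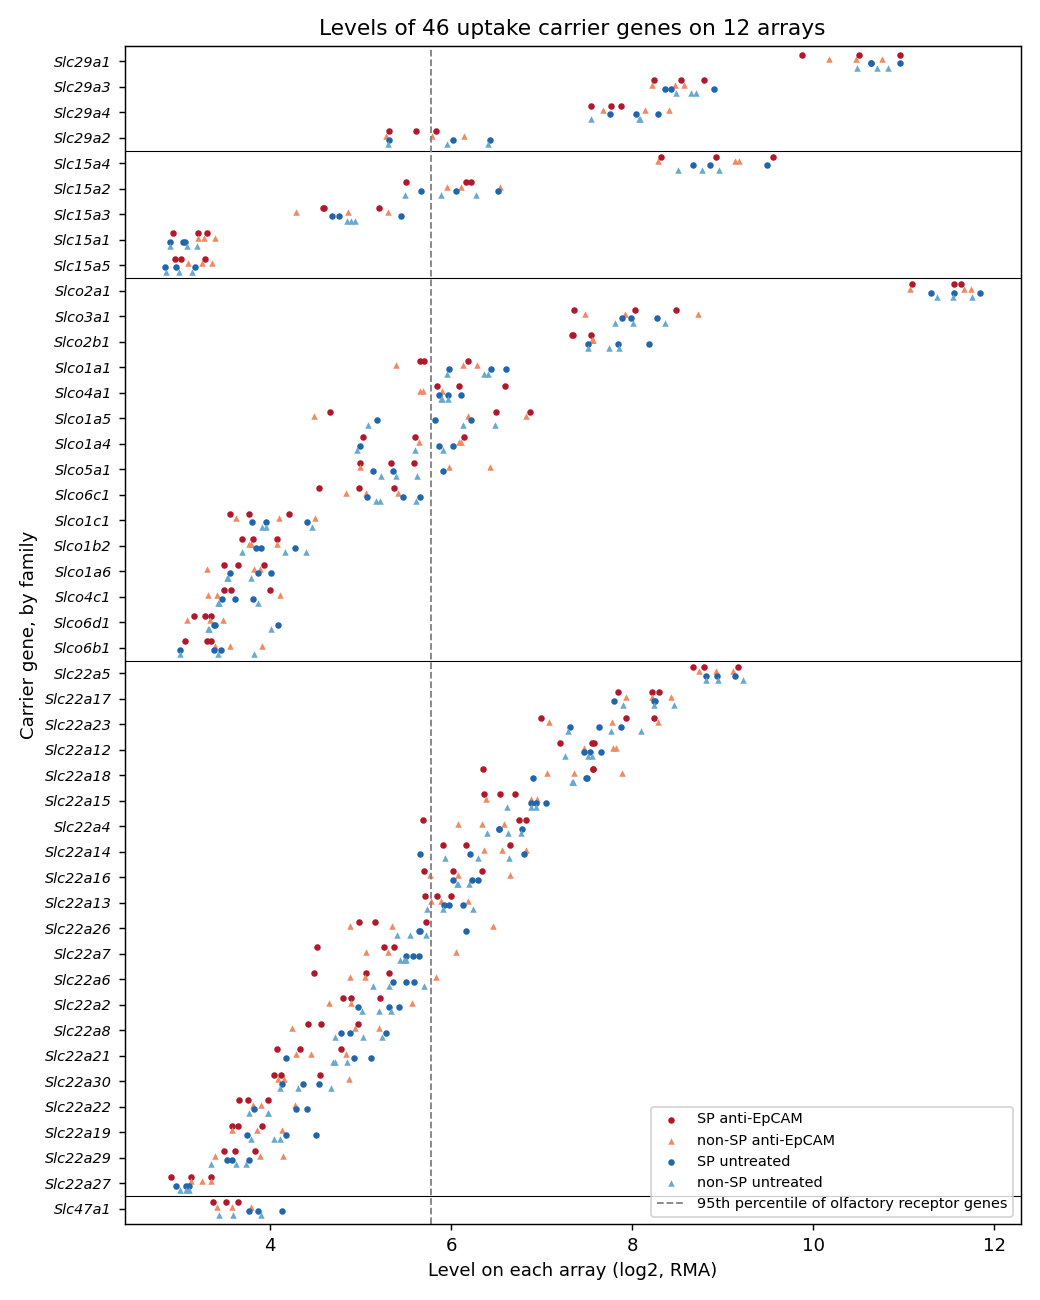
Level of each of the 46 carrier genes on every array (log2, x axis), grouped by family, with the 4 groups in different colours and markers and the olfactory receptor limit of 5.78 as a dashed line. The points of the 4 groups lie mostly on top of each other, the points of Slco2a1 run from 11.07 to 11.84, and Slco1a5 is spread from 4.49 to 6.87.

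Promoter windows of 5 carriers are shown because they carry the sequence contrast described after the levels: 2 are from carriers above the limit on every array, 1 is from the carrier with the widest spread, and 2 are from carriers below the limit. Each runs from 250 bases before to 50 bases after the gene start in the RefSeq table of mouse build GRCm38.p6, and is written 5′ to 3′ on the gene's strand. Capitals mark CG dinucleotides (CpG).
Slco2a1, chr9:103008237-103008536, + strand: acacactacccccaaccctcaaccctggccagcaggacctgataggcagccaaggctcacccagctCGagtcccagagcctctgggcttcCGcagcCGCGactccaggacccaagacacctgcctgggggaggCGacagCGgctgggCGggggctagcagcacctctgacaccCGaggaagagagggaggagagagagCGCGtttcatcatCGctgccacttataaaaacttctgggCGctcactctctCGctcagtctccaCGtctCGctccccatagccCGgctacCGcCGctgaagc
Slc22a5, chr11:53891654-53891953, - strand: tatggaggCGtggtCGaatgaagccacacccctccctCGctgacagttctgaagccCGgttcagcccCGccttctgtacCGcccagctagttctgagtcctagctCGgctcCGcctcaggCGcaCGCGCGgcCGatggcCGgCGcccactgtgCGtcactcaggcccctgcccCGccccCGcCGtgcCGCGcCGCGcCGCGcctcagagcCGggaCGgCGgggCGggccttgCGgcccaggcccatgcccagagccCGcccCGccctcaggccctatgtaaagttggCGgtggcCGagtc
Slco1a5, chr6:142322932-142323231, - strand: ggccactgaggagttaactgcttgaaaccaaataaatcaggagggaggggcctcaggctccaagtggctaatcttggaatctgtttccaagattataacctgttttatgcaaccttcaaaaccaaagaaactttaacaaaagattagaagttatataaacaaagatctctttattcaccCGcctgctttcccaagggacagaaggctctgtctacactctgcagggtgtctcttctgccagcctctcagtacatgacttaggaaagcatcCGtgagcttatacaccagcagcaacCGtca
Slco1b2, chr6:141629268-141629567, + strand: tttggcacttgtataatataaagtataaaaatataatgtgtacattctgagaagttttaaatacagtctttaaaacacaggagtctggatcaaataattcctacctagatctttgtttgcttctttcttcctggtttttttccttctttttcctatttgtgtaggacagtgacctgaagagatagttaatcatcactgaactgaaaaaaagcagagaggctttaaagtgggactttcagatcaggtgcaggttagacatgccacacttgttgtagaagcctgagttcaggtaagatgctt
Slc22a30, chr19:8405056-8405355, - strand: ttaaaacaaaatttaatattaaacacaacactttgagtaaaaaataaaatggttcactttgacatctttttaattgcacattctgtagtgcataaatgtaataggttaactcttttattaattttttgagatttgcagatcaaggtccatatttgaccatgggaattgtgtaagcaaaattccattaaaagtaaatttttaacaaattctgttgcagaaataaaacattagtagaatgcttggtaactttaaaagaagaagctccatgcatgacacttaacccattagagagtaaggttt
The Slco2a1 and Slc22a5 windows hold 18 and 34 CpG, the Slco1a5 window holds 3, and the windows of Slco1b2 and Slc22a30 hold 0.

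In the Slco family, which carries prostaglandins, bile acids and other organic anions, 6 of 15 genes were above the limit. Slco2a1, the prostaglandin transporter, had levels of 11.55, 11.63 and 11.09 in SP anti-EpCAM cells, 11.66, 11.75 and 11.07 in non-SP anti-EpCAM cells, 11.56, 11.84 and 11.29 in SP untreated cells, and 11.37, 11.75 and 11.54 in non-SP untreated cells. The 4 groups overlapped, and the lowest values were both of anti-EpCAM pair 3. Its other 3 probe sets were also above the limit, with means of 8.42, 8.01 and 6.59.

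Among genes that make and sense prostaglandins, Ptgs2, Ptges and the receptor Ptger4 lay above the limit with means of 11.0, 9.48 and 11.0. The degrading enzyme Hpgd, at 4.03, and the receptor Ptger2, at 5.51, did not. Together 3 of the 5 measured prostaglandin genes were above it. Ptgs2 ranged from 9.59 to 12.40 over the arrays, a wider range than that of Slco2a1, from 11.07 to 11.84.

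Slco3a1, which carries prostaglandins and other organic anions, averaged 7.96 ± 0.57 in SP anti-EpCAM, 8.04 ± 0.63 in non-SP anti-EpCAM, 8.05 ± 0.20 in SP untreated and 8.06 ± 0.28 in non-SP untreated cells (SD, n = 3 each). All 3 of its probe sets were above the limit. Slco2b1, a carrier of steroid sulfates, averaged 7.41 ± 0.12, 7.56 ± 0.01, 7.84 ± 0.34 and 7.70 ± 0.17 in the same order of groups. The values of Slco2b1 in every array of 3 of these groups are given with the comparisons.

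The remaining Slco carriers above the limit lay close to it. Slco1a1, a rodent carrier of bile acids and steroid conjugates, averaged 5.85 ± 0.29 in SP anti-EpCAM, 5.94 ± 0.48 in non-SP anti-EpCAM, 6.34 ± 0.33 in SP untreated and 6.24 ± 0.25 in non-SP untreated cells. The other probe set of Slco1a1 averaged 4.33 and was not above the limit. Slco4a1, which carries thyroid hormone, averaged 6.17 ± 0.38, 5.75 ± 0.13, 5.98 ± 0.12 and 5.92 ± 0.04 in that order. Slco4a1 was read from a probe set that can take up signal from related transcripts, and its other probe set averaged 5.77, just below the limit. Slco1a5, another rodent bile acid carrier, averaged 6.01 ± 1.18, 5.83 ± 1.21, 5.74 ± 0.53 and 5.90 ± 0.73, the widest spread of any carrier.

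The other 9 Slco carriers were not above the limit. The liver carrier Slco1b2 averaged 3.96, and its highest array reached 4.40. Slco1c1, the thyroxine carrier of the blood-brain barrier, averaged 4.02, and Slco4c1 of the kidney 3.63. Slco6b1, Slco6c1 and Slco6d1, known from mouse testis, averaged 3.39, 5.20 and 3.43. Slco1a4 and Slco1a6, rodent relatives of Slco1a1, averaged 5.66 and 3.70, and Slco5a1, whose substrates are little known, averaged 5.50.

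Nucleoside carriers were the only family of more than 1 gene with every member above the limit, although Slc29a2 lay at the limit itself. Slc29a1, the main equilibrative nucleoside transporter of the plasma membrane, had levels of 10.51, 9.87 and 10.95 in SP anti-EpCAM cells, 10.47, 10.17 and 10.76 in non-SP anti-EpCAM cells, 10.64, 10.96 and 10.64 in SP untreated cells, and 10.70, 10.83 and 10.49 in non-SP untreated cells. The lowest values were both of anti-EpCAM pair 2, and the groups overlapped. Slc29a3, found in lysosomes and mitochondria, averaged 8.52 ± 0.27, 8.42 ± 0.18, 8.57 ± 0.29 and 8.61 ± 0.11 in SP anti-EpCAM, non-SP anti-EpCAM, SP untreated and non-SP untreated cells.

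Slc29a4, the plasma membrane monoamine transporter, averaged 7.73 ± 0.17 in SP anti-EpCAM, 8.07 ± 0.37 in non-SP anti-EpCAM, 8.02 ± 0.27 in SP untreated and 7.90 ± 0.31 in non-SP untreated cells. This reading came from an x_at probe set, and the other probe set of Slc29a4, with a mean of 4.10, was not above the limit. Slc29a2, which also carries nucleobases, averaged 5.59 ± 0.26, 5.73 ± 0.43, 5.92 ± 0.56 and 5.89 ± 0.56 in the same order. The other probe set of Slc29a2 averaged 5.28 and was not above the limit. Of 16 measured genes that handle nucleosides, 14 were above the limit, among them the kinases Adk (12.1), Dck (9.54) and Tk1 (11.0) and the phosphorylase Pnp (12.5). The 2 below it were the sodium-coupled nucleoside carrier Slc28a3 (4.77) and the adenosine receptor Adora3 (5.57).

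In the Slc22a family, carriers of carnitine and related cations were above the limit in part. Slc22a5, the high-affinity carnitine carrier OCTN2, had levels of 9.16, 8.67 and 8.80 in SP anti-EpCAM cells, 9.12, 8.93 and 8.74 in non-SP anti-EpCAM cells, 8.94, 8.81 and 9.13 in SP untreated cells, and 8.95, 8.81 and 9.22 in non-SP untreated cells. The groups overlapped, and all 12 values lay between 8.67 and 9.22. The other probe set of Slc22a5 averaged 5.59 and was not above the limit. Slc22a4, which carries ergothioneine, averaged 6.42 ± 0.64 in SP anti-EpCAM, 6.33 ± 0.26 in non-SP anti-EpCAM, 6.61 ± 0.15 in SP untreated and 6.60 ± 0.19 in non-SP untreated cells. Slc22a16, a carnitine carrier known from human testis, averaged 6.12, and the mouse carnitine carrier Slc22a21, which lies between Slc22a5 and Slc22a4 on chromosome 11, averaged 4.60 and was not above the limit.

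Of 7 genes that make or use carnitine, 5 were above the limit. These 5 were Aldh9a1 (11.5), the mitochondrial shuttle genes Cpt1a (9.64), Slc25a20 (10.2) and Cpt2 (8.85), and the acetyltransferase Crat (8.09). Bbox1 (5.11) and Tmlhe (4.78), the last and the first enzyme of carnitine synthesis, were not.

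Other Slc22a genes above the limit were a mixed group. Slc22a17, the lipocalin 2 receptor, averaged 8.12 ± 0.24 in SP anti-EpCAM, 8.19 ± 0.25 in non-SP anti-EpCAM, 8.10 ± 0.26 in SP untreated and 8.20 ± 0.28 in non-SP untreated cells. Slc22a23, whose substrate is not established, averaged 7.72 ± 0.65, 7.71 ± 0.61, 7.61 ± 0.28 and 7.72 ± 0.40 in that order. Slc22a12, the urate exchanger of the kidney, averaged 7.44 ± 0.21, 7.69 ± 0.20, 7.55 ± 0.10 and 7.44 ± 0.16. Both probe sets of Slc22a12 were above the limit, also that with the mean of 6.82.

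Slc22a18, an imprinted gene, averaged 7.16 ± 0.70 in SP anti-EpCAM, 7.43 ± 0.42 in non-SP anti-EpCAM, 7.29 ± 0.34 in SP untreated and 7.34 ± 0.01 in non-SP untreated cells. Slc22a15, a carrier of zwitterions in humans, averaged 6.53 ± 0.17, 6.74 ± 0.31, 6.95 ± 0.08 and 6.81 ± 0.17 in the same order. The other probe set of Slc22a15 averaged 5.17 and was not above the limit. Slc22a14, a riboflavin carrier of mouse sperm, and Slc22a13, a urate and nicotinate exchanger, lie side by side on chromosome 9 and averaged 6.33 and 5.94 over all arrays.

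The remaining 11 Slc22a genes, Slc22a21 among them, and the Slc47a gene were not above the limit. Slc22a6 (OAT1) averaged 5.27, Slc22a8 (OAT3) 4.85, Slc22a7 (OAT2) 5.39, Slc22a2 (OCT2) 5.11 and the exporter Slc47a1 (MATE1) 3.67. The mouse prostaglandin carrier Slc22a22 averaged 3.97. A run of 7 neighbouring Slc22a genes on chromosome 19 held none above the limit: Slc22a19 (3.92), Slc22a26 (5.56), Slc22a27 (3.12), Slc22a29 (3.66), Slc22a30 (4.33), Slc22a8 and Slc22a6. In all, 20 carriers lay in 7 such runs and 6 of them were above the limit, against 16 of the other 26.

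Among 12 measured genes that handle bile acids and organic anions, 4 were above the limit. The efflux pumps Abcc4 and Abcc3 averaged 10.5 and 8.39, and Slc51b and Hnf4a averaged 6.16 and 6.08. The liver uptake carrier Slc10a1 (4.46), the canalicular pumps Abcb11 (4.35) and Abcc2 (3.36) and the receptor Nr1h4 (4.78) were not. Of 3 hepatocyte markers Ttr (7.21) and Apoa1 (6.25) lay above the limit and Alb (5.07) did not. Of 3 kidney tubule markers Kap (7.15) and Aqp2 (5.90) did and Umod (3.35) did not. Markers of other tissues thus also passed the limit.

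Of the peptide carriers, the endolysosomal Slc15a4 was above the limit on every array. It had levels of 8.93, 9.55 and 8.31 in SP anti-EpCAM cells, 9.18, 9.13 and 8.28 in non-SP anti-EpCAM cells, 9.49, 8.67 and 8.86 in SP untreated cells, and 8.95, 8.51 and 8.77 in non-SP untreated cells. The groups overlapped, and anti-EpCAM pair 3 was lowest. Its other probe set averaged 3.71 and was not above the limit. Slc15a2, the high-affinity peptide carrier PEPT2, averaged 5.96 ± 0.40 in SP anti-EpCAM, 6.20 ± 0.30 in non-SP anti-EpCAM, 6.08 ± 0.43 in SP untreated and 5.88 ± 0.39 in non-SP untreated cells, and only 1 of its 3 probe sets was above the limit.

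The intestinal peptide carrier Slc15a1 (3.12), the lysosomal Slc15a3 (4.87) and Slc15a5 (3.07), whose substrate is not established, were not above the limit. Of 7 measured partner genes only the scaffold Slc9a3r1, at 11.1, was. The surface peptidases Anpep (5.52), Dpp4 (5.74), Mme (4.42) and Dpep1 (5.20) were not. Among thyroid hormone genes, 3 of 6 were above it, among them Slc7a5 (11.1) and the receptor Thra (9.25).

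The promoter windows of carriers above and below the limit differed in CpG content. Of the 46 carriers 40 had a window in the RefSeq table, and where a gene had several, that with most CpG was used. The median was 18 CpG over 21 carriers above the limit and 1 over 19 carriers not above it. At least 10 CpG stood in 12 of these 21 windows (57.1%) and in 2 of the 19 (10.5%). The same division of all measured genes gave 84.9% of 9560 above and 40.4% of 4893 not above the limit, so the carriers followed the direction of genes in general, with a lower share on both sides.

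Exceptions lay on both sides. Slco4c1 and Slc15a1 had 21 and 12 CpG without signal above the limit. Slco2b1, Slc22a12 and Slc22a18 had 5, 6 and 2 CpG with signal above it, as had Slco1a1 and Slc22a13 with 0. The letters TATAAA, searched on both strands, stood in 8 of 40 windows, against 1352 of the 14453 windows of all measured genes (9.35%). These 8 included Slco2a1, Slc29a4 and Slco1a5 above the limit and Slco1b2, Slco1c1 and Slc22a22 not above it.

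**Figure D2:**
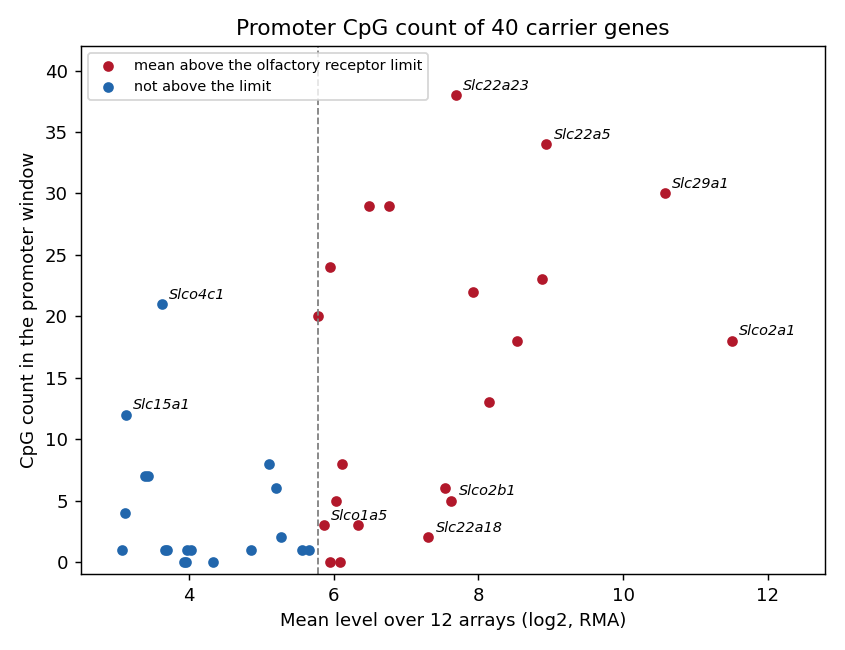
CpG count in the 300-base promoter window (y axis) against the mean level over 12 arrays (log2, x axis) for 40 carrier genes, red above and blue not above the olfactory receptor limit (dashed line). Most blue points lie under 10 CpG, with Slco4c1 and Slc15a1 as exceptions, and the red points spread from 0 to 38.

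No carrier was found to differ between SP and non-SP cells. None passed an adjusted p of 0.05 in limma's test over all 18194 genes in any of the 7 comparisons of fraction and antibody, and neither did any gene (0% of genes in each). Lists of partner genes also had no gene past the threshold. In untreated cells 0 carriers and 4 of all genes (0.022%) had an unadjusted p under 0.05. The median difference of the carriers, SP minus non-SP, was 0.053 log2 units, against 0.010 over all genes. In the fraction comparisons within each treatment the fit did not use the pairs. Their p-values therefore include the spread between pairs, and a low count of genes does not show that the fractions are alike.

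In untreated cells the highest of the named differences was that of the exporter Slc47a1. It had levels of 3.77, 3.86 and 4.13 in SP and 3.59, 3.43 and 3.90 in non-SP cells, a difference of 0.28 ± 0.18 (SE) with an adjusted p of 1.00 by limma. Within the untreated pairs SP was higher by 0.18, 0.43 and 0.23, while the anti-EpCAM pairs gave -0.22, -0.27 and 0.24. The group fit that gave the SE does not use the pairs. As groups the fractions overlapped, and all 6 values were below the limit. Slc22a22 and Slco1a6, also below it, differed by 0.26 ± 0.19 and 0.19 ± 0.20. At the other end stood Slco6b1 (-0.14 ± 0.22), Slc22a17 (-0.10 ± 0.21) and Slco1b2 (-0.080 ± 0.20). In 45 of 46 carriers the 95% interval lay within a 2-fold difference either way, against 96.5% of all genes. No carrier had fractions that did not overlap, while 1.24% of all genes lay higher and 1.13% lower without overlap in SP cells.

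In anti-EpCAM cells 38 carriers had a lower mean in SP than in non-SP cells and 8 a higher one, as 10494 of all 18194 genes had a lower mean. Their median difference was -0.13 log2 units, against -0.030 over all genes. Over the 22 carriers above the limit the median was -0.084. Of the 21 Slc22a genes 19 lay below the median of all genes. The pairs did not go the same way. The median carrier level was 5.12, 5.61 and 5.48 on the SP arrays of pairs 1, 2 and 3. On their non-SP arrays it was 5.50, 6.09 and 5.02, so SP lay lower in pairs 1 and 2 and higher in pair 3. Unadjusted, 1 carrier and 127 of all genes had p under 0.05. Without anti-EpCAM pair 2, the pair that stood apart in actin, the carriers' median minus that of all genes was -0.061, against -0.10 with it.

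The carrier with that p was Slco4a1, the thyroid hormone carrier. Its levels were 5.84, 6.59 and 6.09 in SP and 5.66, 5.69 and 5.90 in non-SP cells of the anti-EpCAM groups. The fractions overlapped, since the SP value of pair 1 lay below the non-SP value of pair 3. The difference was 0.42 ± 0.19 (SE; unadjusted p = 0.0405, adjusted p = 1.00 by limma). Without pair 2 it was 0.19, and on the other probe set of Slco4a1 it was -0.056.

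Slco6b1 and Slco2b1 had all SP values below all non-SP values in anti-EpCAM cells, 2 of 46 carriers against 1.78% of all genes, and no carrier lay higher without overlap (0.572% of genes). For Slco6b1 these were 3.30, 3.06 and 3.35 in SP against 3.39, 3.92 and 3.56 in non-SP cells, all below the limit, with a difference of -0.38 ± 0.22 (-0.15 without pair 2). For Slco2b1 they were 7.34, 7.34 and 7.55 in SP against 7.55, 7.56 and 7.57 in non-SP cells, so that the fractions nearly met. The kidney carrier Slc22a7 differed by -0.42 ± 0.26 and Slc29a4 by -0.35 ± 0.22, which were -0.24 and -0.20 without pair 2. Slc29a3 and Slc22a4 differed by 0.10 ± 0.19 and 0.091 ± 0.27. The 95% interval lay within 2-fold for 43 of 46 carriers.

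**Figure D3:**
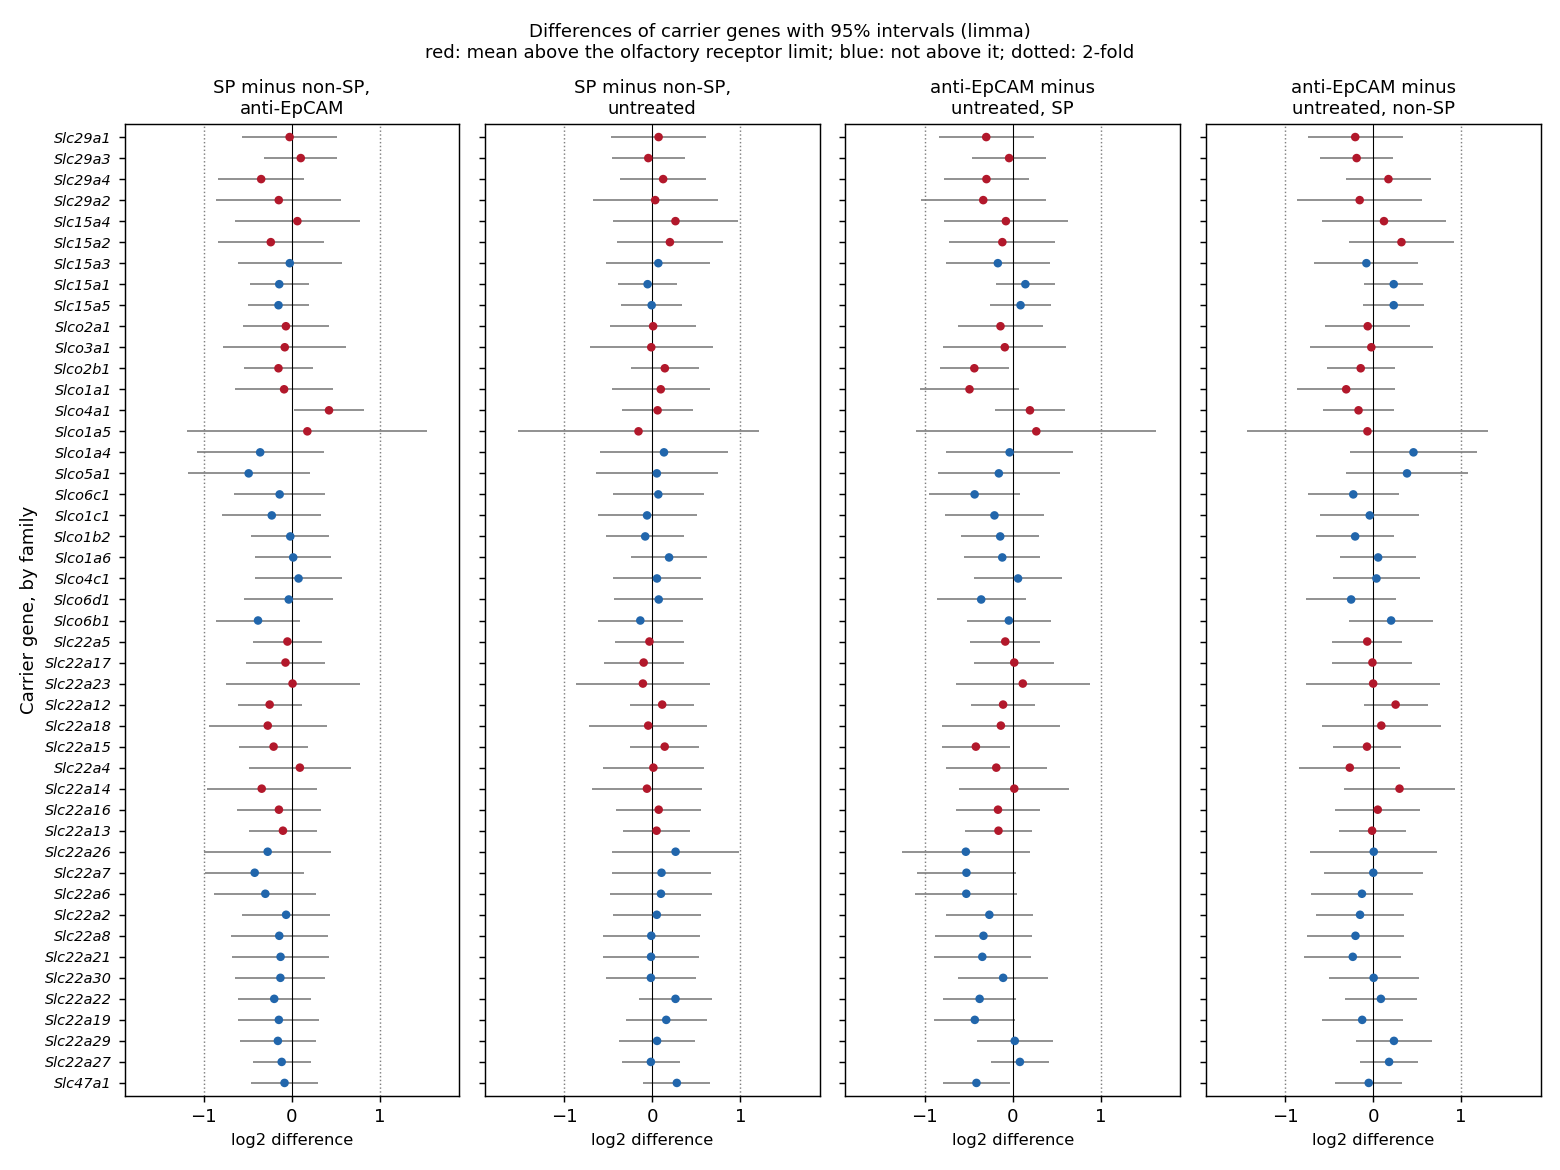
Differences of the 46 carrier genes (log2, x axis) in 4 comparisons, 1 a panel, with 95% intervals from limma, red for means above and blue for means not above the olfactory receptor limit, with dotted lines at 2-fold. Most intervals include 0, no difference passed the adjusted threshold, and the interval of Slco1a5 is the widest in all 4 panels.

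Fractions were also compared within the 6 pairs, which removes the spread between pairs. The 95% interval then reached, in the median carrier, 0.23 log2 units to either side, against 0.50 in the comparisons of single groups. All 46 carriers had intervals within 2-fold. Their median difference was -0.039, against -0.014 over all genes, with 14 carriers higher and 32 lower in SP cells. Unadjusted, 1 carrier and 371 of all genes had p under 0.05, with a lowest adjusted p of 0.958 over the carriers by limma.

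Slco6b1 lay lower in the SP array in 5 pairs and equal in 1, by -0.26 ± 0.11 (SE; unadjusted p = 0.0436 by limma; exact two-sided sign-flip permutation p = 0.0625 over 6 pairs). With 1 pair at 0 this is the smallest p that the exact test can give, while 6 unequal pairs would allow 0.03125. Slco6b1 stayed below the limit on all arrays, and without anti-EpCAM pair 2 the difference was -0.14. Slco4a1 was higher in SP in 5 of 6 pairs, by 0.24 ± 0.12 (exact two-sided permutation p = 0.0938), and by 0.11 without that pair. No carrier was higher or lower in SP in all 6 pairs, which 0.682% and 0.786% of all genes were.

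Slc15a4, the endolysosomal peptide carrier, was higher in SP in 5 of 6 pairs, by 0.16 ± 0.10. Slco1a6 was higher in 5 pairs, by 0.10 ± 0.082. Slc22a14 was higher in SP in 2 and Slc22a17 in 1 of 6 pairs, with differences of -0.20 ± 0.14 and -0.085 ± 0.061 in the same order. On the probe set read, Slco2a1 differed by at most 0.25 log2 units within any pair and Slc29a1 by at most 0.30. Another Slco2a1 probe set above the limit had 7.51 in the SP and 7.99 in the non-SP array of untreated pair 3.

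In SP cells most carriers, like most genes, had lower means with the antibody. This comparison shares the SP anti-EpCAM arrays with the fraction comparison in anti-EpCAM cells. Medians of whole arrays were also lower, at most 5.75 in SP anti-EpCAM against at least 5.80 in SP untreated cells. The differences given here are not corrected for this. Of 46 carriers 36 had a lower mean in SP anti-EpCAM than in SP untreated cells. Their median difference was -0.15 log2 units, against -0.12 over all genes, a distance of -0.031 between them, which was -0.13 without anti-EpCAM pair 2. Unadjusted, 3 carriers and 835 of all genes had p under 0.05, with all 3 carriers and 815 of the genes lower in anti-EpCAM cells. No carrier passed the adjusted threshold.

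Those 3 were Slco2b1, Slc47a1 and Slc22a15. Slco2b1 had 7.34, 7.34 and 7.55 in SP anti-EpCAM against 8.18, 7.51 and 7.84 in SP untreated cells, a difference of -0.44 ± 0.18 (SE; unadjusted p = 0.0307, adjusted p = 1.00 by limma). The groups overlapped, since 1 anti-EpCAM value lay just above the lowest untreated value. Leaving out replicates in turn gave -0.60 to -0.27, the value nearest to 0 without SP untreated replicate 1, and the other Slco2b1 probe set above the limit gave -0.0064. Slc22a15 had 6.70, 6.36 and 6.54 in SP anti-EpCAM against 7.04, 6.88 and 6.94 in SP untreated cells, without overlap, a difference of -0.42 ± 0.18 (unadjusted p = 0.0368, adjusted p = 1.00). Slc47a1 had 3.37, 3.52 and 3.65 against 3.77, 3.86 and 4.13 in the same groups, again without overlap, but on a signal below the limit (-0.41 ± 0.18; unadjusted p = 0.0359, adjusted p = 1.00).

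Without anti-EpCAM pair 2 these differences were -0.40 for Slco2b1, -0.33 for Slc22a15 and -0.42 for Slc47a1. In all, 5 carriers lay lower without overlap in SP anti-EpCAM cells, against 8.04% of all genes: Slc22a15, Slc47a1 and the kidney carriers Slc22a6 and Slc22a7 with the testis carrier Slco6d1. Of these only Slc22a15 was above the limit. No carrier lay higher without overlap (0.434% of genes). By moderated t the highest were Slco4a1 (0.20 ± 0.19, but -0.013 without pair 2), Slc15a1 (0.14 ± 0.15) and Slc15a5 (0.089 ± 0.16). The 95% interval lay within 2-fold for 40 of 46 carriers, against 90.5% of genes.

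In non-SP cells the carriers' median difference between antibody groups was nearer to 0 than that of all genes. It was -0.017 log2 units over the carriers, against -0.10 over all genes, with 20 carriers higher and 26 lower in anti-EpCAM cells. Without anti-EpCAM pair 2 the carriers' median minus that of all genes was -0.050, against 0.083 with the pair, so that its side depended on this pair. No carrier and 585 of all genes had an unadjusted p under 0.05.

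Slc22a12, the urate exchanger, had 7.79, 7.82 and 7.47 in non-SP anti-EpCAM against 7.51, 7.25 and 7.56 in non-SP untreated cells, a difference of 0.25 ± 0.17 with overlap. Slc15a1 and Slc15a5 differed by 0.23 ± 0.15 and 0.23 ± 0.16, and Slco1a1, Slco6d1 and Slco1b2 by -0.31 ± 0.26, -0.25 ± 0.23 and -0.20 ± 0.20. With replicates or the pair left out these 3 ran from -0.48 to -0.033, from -0.37 to -0.020 and from -0.40 to -0.049. Slc15a1 and Slc22a27, both below the limit, lay higher in anti-EpCAM cells without overlap, 2 carriers against 1.19% of genes. No carrier lay lower without overlap, as 6.62% of genes did. Intervals lay within 2-fold for 43 of 46 carriers.

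With SP and non-SP arrays averaged within pairs, 3 anti-EpCAM pair means were set against 3 untreated ones. The carriers' median difference was -0.082, against -0.11 over all genes, and no carrier had an unadjusted p under 0.05, which 461 of all genes had. Slco1a1 differed by -0.40 ± 0.22, Slco2b1 by -0.29 ± 0.18 and Slco6c1 by -0.33 ± 0.21, the 3 lowest by limma's moderated t. Without anti-EpCAM pair 2 these were -0.57, -0.27 and -0.51 in the same order. Slc15a1, Slc15a5 and Slc22a27 differed by 0.19 ± 0.16, 0.16 ± 0.16 and 0.13 ± 0.16. None of the carriers had non-overlapping pair means, which 0.616% of genes had with anti-EpCAM higher and 6.95% with anti-EpCAM lower. Exact permutation of 3 against 3 pairs cannot give a p under 0.1.

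The interaction asks whether the fraction difference itself differed between anti-EpCAM and untreated cells. Of 46 carriers 38 had a negative value, with a median of -0.17 log2 units against -0.033 over all genes, and none had an unadjusted p under 0.05 (43 of all genes). By moderated t the lowest were Slc22a22 (-0.46 ± 0.27), Slc22a12 (-0.36 ± 0.24) and Slc29a4 (-0.47 ± 0.32). By the same measure the highest were Slco4a1 (0.36 ± 0.26), Slc29a3 (0.15 ± 0.27) and Slco1a5 (0.33 ± 0.89). Intervals were wide, reaching 0.71 to either side in the median carrier, and lay within 2-fold for 31 of 46. The fit did not use the pairs, so these intervals include the spread between pairs. This comparison shares all its arrays with the fraction comparisons within each treatment. Without anti-EpCAM pair 2 the value of Slco4a1 was 0.13, that of Slc29a4 -0.33 and that of Slc22a22 -0.30.

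Most carriers, like most genes, varied more between pairs than between the fractions of a pair. Arrays were called a pair because their values deviated together in these same data, so this direction was built in. The spreads are therefore given as a description, and they test nothing about the carriers. The median SD was 0.27 log2 units between pairs of one treatment and 0.18 within a pair, against 0.24 and 0.15 over all genes. The SD between pairs was the larger one in 34 of 46 carriers (73.9%), a share below the 78.9% of all genes. The carriers named next were picked for their spread after their values were seen, so they are described without a test.

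Slco1a5 had an SD of 0.94 between pairs, which put it at the 99.7th percentile of all genes, and of 0.22 within a pair. Its pair means were 6.84, 6.34 and 4.57 in anti-EpCAM cells and 6.17, 5.13 and 6.15 in untreated cells. Anti-EpCAM pair 3 and untreated pair 2 were thus below the background limit while the other 4 pairs were above it. The second probe set of Slco1a5 had 5.88, 5.35 and 4.41 in anti-EpCAM pairs and 5.68, 3.90 and 5.84 in untreated pairs, low in the same 2 pairs.

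Slc22a23 had pair means of 8.26, 7.86 and 7.04 in anti-EpCAM cells and 7.82, 7.30 and 7.86 in untreated cells. Slco3a1 had 8.60, 7.98 and 7.41 in anti-EpCAM cells and 8.14, 7.85 and 8.18 in untreated cells. In both genes, as in Slco1a5, anti-EpCAM pair 3 was the lowest of all pairs, untreated pair 2 the lowest untreated pair and anti-EpCAM pair 1 the highest of all. The other 2 probe sets of Slco3a1 were also lowest in anti-EpCAM pair 3, with 7.70 and 7.13.

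Slc15a4 shared the low value of anti-EpCAM pair 3 but was highest in anti-EpCAM pair 2, with 9.05, 9.34 and 8.30 in anti-EpCAM and 9.22, 8.59 and 8.81 in untreated pairs. Slc29a2 went otherwise, with 5.30, 5.87 and 5.81 in anti-EpCAM and 6.42, 5.31 and 5.99 in untreated pairs. On the probe set read, Slco2a1 had pair means from 11.08 to 11.79, but 2 of its other probe sets ranged more widely, from 7.36 to 8.62 and from 7.88 to 8.89.

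Markers moved between pairs as well. The mean of the 3 fibroblast markers was 10.8, 9.84 and 9.72 in anti-EpCAM pairs and 10.1, 9.92 and 10.3 in untreated pairs. The matrix gene Dcn had 11.10 (SP) and 11.38 (non-SP) in anti-EpCAM pair 1, against 7.97 and 7.85 in anti-EpCAM pair 3 and 8.01 and 8.04 in untreated pair 2. Col1a1 went the other way, with 11.50 (SP) and 11.45 (non-SP) in anti-EpCAM pair 1 and 11.75 and 11.64 in anti-EpCAM pair 3. In untreated pair 2 Col1a1 had 11.84 and 12.19. Pdgfra ran only from 9.15 to 9.79 over all arrays. The mean of the fibroblast markers thus does not stand for a joint shift of all 3. The mean of the epithelial markers was 7.72, 7.45 and 7.23 in anti-EpCAM pairs and 7.64, 6.92 and 7.70 in untreated pairs. Its members did not move alike. Of the anti-EpCAM pairs, pair 3 was lowest for Krt8 and Krt18 but highest for Epcam. There Epcam had 8.22 (SP) and 8.28 (non-SP), against 7.96 and 8.05 in pair 1 and 7.80 and 7.92 in pair 2. The part of these marker shifts in the carriers' spread was not tested, and in sorted bulk cells fewer cells of a kind and less RNA per cell cannot be told apart.

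**Figure D4:**
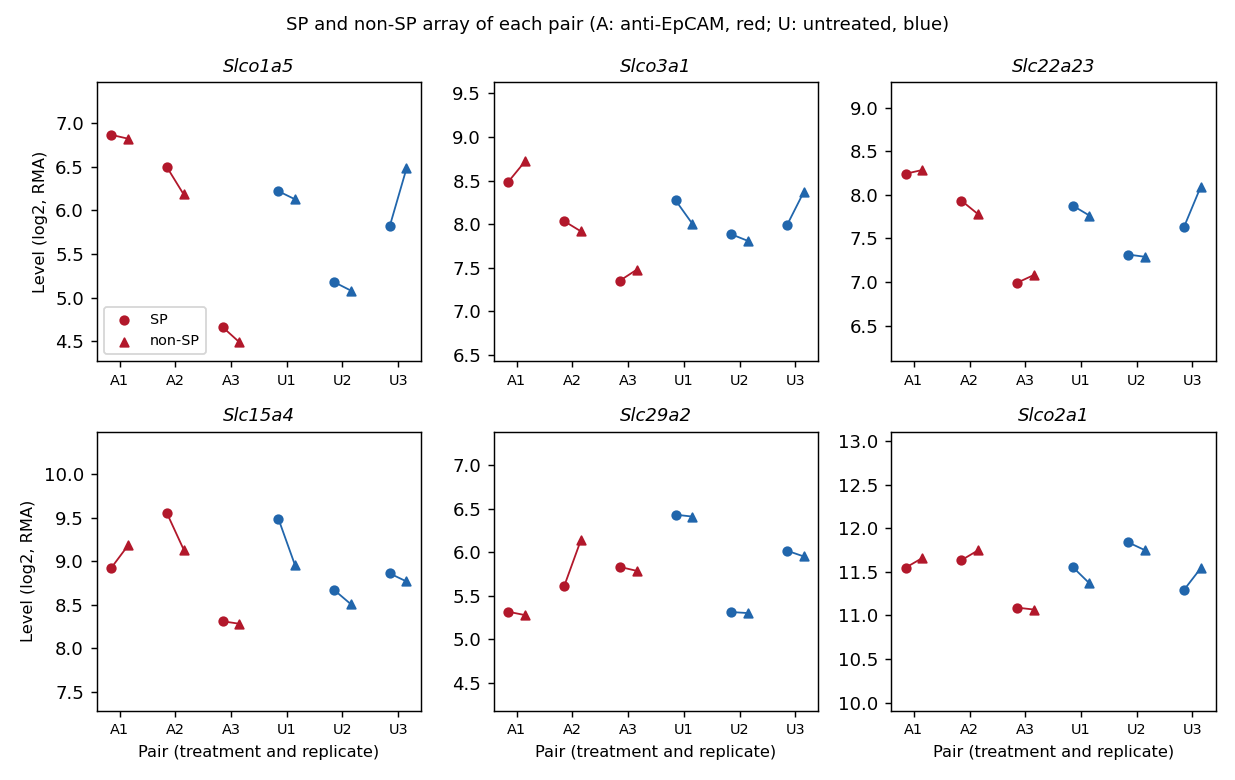
Levels (log2, y axis) of 6 carrier genes in the SP (circle) and non-SP (triangle) array of each pair, joined by a line, with anti-EpCAM pairs A1 to A3 in red and untreated pairs U1 to U3 in blue; every panel spans 3.2 log2 units. In Slco1a5, Slco3a1 and Slc22a23 both arrays of A3 lie low, and in most panels the 2 arrays of a pair lie closer together than the pairs do.

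**Figure D5:**
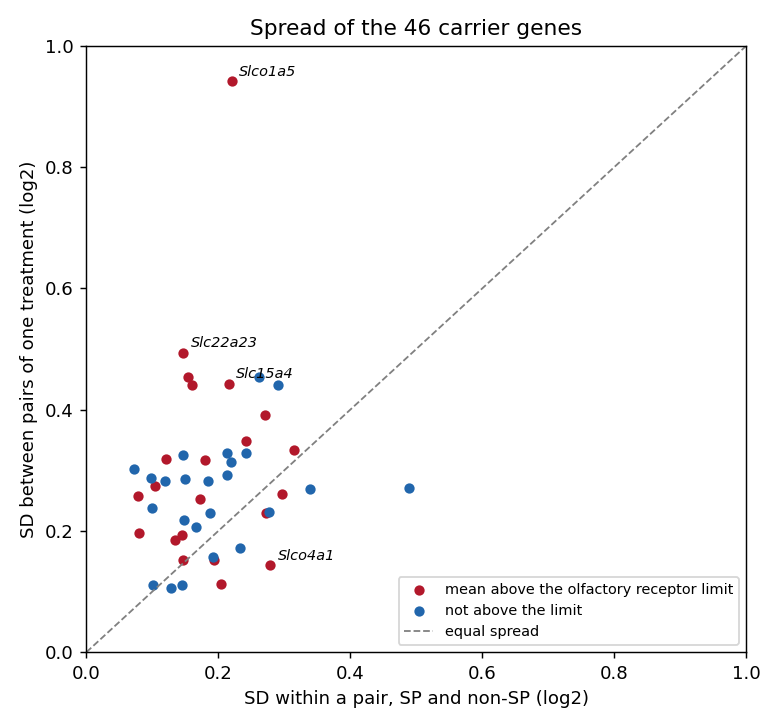
SD between pairs of one treatment (y axis) against SD within a pair (x axis), both in log2 units, for the 46 carrier genes, red above and blue not above the olfactory receptor limit, with a dashed line of equal spread. Slco1a5 lies far above the line at 0.94, 34 of 46 genes lie above it, and Slco4a1 lies below it.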

How the data were processed

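Per the labels' protocols, 200 ng of RNA from each sample were labelled for an Affymetrix mouse array. The table of the authors holds log2 values made by RMA, per the submitters' processing notes, and no source used here gives the software version or a later scaling. Of 45101 probe sets 34958 had 1 gene symbol in the annotation of 2016, which gave 18194 genes, with no filter on level. The carriers had 76 probe sets, and 22 carriers had several. For 5 carriers (Slc29a4, Slco4a1, Slc15a2, Slc22a27 and Slc22a29) the probe set read is an x_at or s_at one, which can take up signal from related transcripts. All 46 carrier symbols matched the RefSeq tables.

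Group means were compared by limma 3.58.1 under R 4.3.3 (lmFit, then eBayes with no trend) on all 12 arrays with 4 group means, two-sided, adjusted after Benjamini-Hochberg over all genes. The labels do not say that replicate numbers pair samples. When each array was set against its group mean, the SP and non-SP deviations of 1 number and treatment had correlations over genes of 0.75, 0.62 and 0.56 (anti-EpCAM) and 0.66, 0.84 and 0.55 (untreated), while those of anti-EpCAM and untreated arrays of 1 number ran from -0.38 to -0.0054. The fit over 6 pairs used the pair as a block, and the antibody fit used the 3 and 3 pair means. The labels call the replicates biological without naming separate cultures, so p-values measure only the spread between these samples.

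The carriers, the partner and marker lists, the tests and the rule for naming genes were chosen with earlier results of these data known. Named with a difference are, per comparison, the 3 carriers with the highest and the 3 with the lowest moderated t, and beside them carriers whose groups did not overlap. All carriers are named with a level. Of 62 partner genes 53 were measured. The group fit was tested on simulated data, for SP against non-SP in untreated cells only and without a spread between pairs. The fits that use pairs and the exact tests were not tested in this way. Tables and exact tests were made in Python 3.11.15 with pandas 2.3.3 and numpy 2.4.6, and figures with matplotlib 3.10.9. The number of arrays limits the precision.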

Additional observations from a re-analysis of the deposited data

Results flagged for a closer look

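The SP minus non-SP difference of Slco4a1 held 1 pair far from the others. It was 0.89 log2 units in anti-EpCAM pair 2, from 6.59 in the SP and 5.69 in the non-SP array, against -0.10 to 0.22 in the other 5 pairs. The gap to the nearest pair took a share of 0.679 of the whole range, above Dixon's 95% critical value for 6 values. Chance alone passes that value in about 5% of groups. This pair also had the largest excess of 3′ over 5′ actin signal of the 6 pairs, and the part of that in the difference was not tested.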

How the results depend on the processing

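Of 746 values of the 42 named differences under alternative settings, 723 kept their direction. These differences were named for an extreme t on the same arrays, so a kept direction is no independent support for them. No gene passed the adjusted threshold in any of 128 alternative fits by limma, where the lowest adjusted p was 0.512 over all genes and 0.584 over the carriers. The replicate block left the carriers' median SP minus non-SP difference, relative to all genes, at -0.10 in anti-EpCAM and 0.042 in untreated cells, and changed no call. Direction changed in the following cases, the cause of which was not tested. With the mean of all probe sets Slco1b2 in untreated cells went to 0.0089 (SP minus non-SP), Slco4a1 in SP cells to -0.070 (anti-EpCAM minus untreated) and Slco1a5 in the interaction to -0.0021. Without x_at and s_at probe sets Slco4a1 went to -0.056 between fractions in anti-EpCAM cells, -0.33 between antibody groups in SP cells, -0.051 in the interaction and -0.030 over the 6 pairs. Without both arrays of anti-EpCAM pair 2, an alternative chosen after the data were seen, Slc22a4 went to -0.24 between fractions in anti-EpCAM cells and Slco4a1 to -0.013 between antibody groups in SP cells. With replicates left out in turn, SP minus non-SP ran from -0.27 to 0.075 for Slco1b2, -0.34 to 0.067 for Slco6b1 and -0.25 to 0.052 for Slc22a17 in untreated cells, and from -0.11 to 0.46 for Slc22a4 and -0.030 to 0.24 for Slc29a3 in anti-EpCAM cells. In SP cells anti-EpCAM minus untreated ran from -0.011 to 0.18 for Slc15a5 and -0.013 to 0.36 for Slco4a1, and the interaction of Slco1a5 ran from -0.34 to 1.01. The count of carriers above background was 22, but 17 with the 99th percentile of olfactory receptor genes (6.08), 18 with the mean of all probe sets and 12 with the median of all genes (7.02) as the limit. Of 15 carriers above the limit with several probe sets, 5 had all of them above it and 9 only the one read.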
